A study of Homo sapiens with 4 samples.

Results

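SMC1-bound anchors that stand alone in long anchor-free stretches of the genome were analysed in Kelly cells, a human neuroblastoma line. An anchor is a short genomic region at which paired-end tags (PETs) of the SMC1 ChIA-PET libraries ended. An anchor was taken as isolated when its midpoint lay at least 100 kb from the midpoint of the nearest other anchor, over the anchors of both deposited tables on chromosomes 1 to 22 and X. This position rule picked 2699 of 39466 anchors, or 6.84%. No PET count entered the choice. The rule does fix one property of the contacts, since an isolated anchor has no possible intrachromosomal partner nearer than 100 kb.

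All cells were a derivative of Kelly resistant to the ALK inhibitor TAE684 and were kept in 1 µM of it. One group received the shBORIS construct and the other the control construct shLUC, by viral infection for 24 h followed by puromycin selection for 48 h. Each group had 2 libraries, and the labels do not say whether the numbers in their names stand for separate hairpins or cultures. The authors deposited 1 table of PET counts per group, so each table is a pool of its 2 libraries, no value carries a replicate error, and every test compares 2 pools rather than the conditions. The level of BORIS was not analysed here.

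SMC1 is a core subunit of cohesin, the ring complex that extrudes chromatin loops until it meets a barrier, most often CTCF bound to DNA. BORIS, also named CTCFL, is a paralog of CTCF with closely similar zinc fingers. Long stretches without genes tend to hold few regulatory elements and to lie in compact chromatin at the nuclear periphery. ChIA-PET also joins fragments by chance in solution, and these random ligations mostly show as PETs between different chromosomes.

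The shBORIS table held 449979 PETs, 36.2% of them intrachromosomal, while that of shLUC held 434975, of which 33.6% were intrachromosomal. Isolated anchors took part in 6738 intrachromosomal PETs in shBORIS and 6957 in shLUC, or 4.13% and 4.76% of all such PETs. Their interchromosomal PETs numbered 28375 in shBORIS and 29557 in shLUC, or 9.89% and 10.2% of the total of that kind. Of the PETs that touched an isolated anchor, 19.2% in shBORIS and 19.1% in shLUC were intrachromosomal. Among PETs between other anchors, which can also span less than 100 kb, the shares were 37.7% and 34.9%. No molecular identifiers mark PCR copies here, so PETs may not be independent molecules, and every interval given covers counting error only.

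Isolated anchors were unevenly spread over the chromosomes. They made up 24.9% of the anchors of chromosome X (153 of 615), 18.5% on chromosome 18 (101 of 547) and 15.2% on chromosome 4 (233 of 1534). At the other end were chromosome 22 with 1.30% (11 of 844), chromosome 17 with 1.66% (40 of 2406) and chromosome 19 with 1.83% (29 of 1586). Chromosomes known as gene-poor thus held the largest of these shares and gene-dense ones the smallest. The median gap of an isolated anchor was 156 kb with quartiles of 121 and 230 kb, against 12.7 kb for all anchors. A gap of at least 200 kb was found for 866 anchors, of at least 500 kb for 123 and of at least 1 Mb for 24.

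Many isolated anchors followed each other along a chromosome. Only 877 of the 2699, or 32.5%, had no isolated anchor beside them, and 555, or 20.6%, stood in 86 runs of 5 or more. The longest run comprised 19 anchors on chromosome 9 between 17323039 and 27034441, a stretch of 9.71 Mb. Over the whole run, 27 intrachromosomal PET ends were counted in shBORIS and 18 in shLUC, beside 128 and 159 interchromosomal ones. A run of 13 lay at 385635 to 6055878 of the same chromosome, with 11 intrachromosomal PET ends in shBORIS and 9 in shLUC, and 6 of its anchors had none in either table. Runs of 11 came next, on chromosomes 4 and 18. The run at 30838568 to 36189831 on chromosome 4 had 6 and 4 intrachromosomal ends in shBORIS and shLUC, beside 107 and 116 interchromosomal ones. The run at 35358005 to 39879527 on chromosome 18 had 11 and 5, beside 85 and 108. PETs of these 4 runs were mostly interchromosomal.

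Isolated anchors were narrower than the rest. Their median width was 1046 bp with quartiles of 860 and 1223 bp, against 1184 bp with quartiles of 948 and 1449 bp for other anchors. A width of at least 2000 bp was reached by 69 isolated anchors (2.56%) and by 3091 others (8.41%). Median width was 1080 bp at gaps of 100 to 150 kb, 1018 bp at 200 to 300 kb and 902 bp at 500 kb or more. Across the 2699 isolated anchors, width went with interchromosomal PETs (Spearman's rho = 0.83 as a description) more closely than with intrachromosomal ones (rho = 0.62). The points share their libraries and depth.

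Isolated anchors had fewer contacts than the rest mainly within their own chromosome, where the rule leaves them no partner nearer than 100 kb. Between other anchors, PETs under 100 kb made up 51.6% of intrachromosomal PETs in shBORIS and 49.3% in shLUC. The counts below are over all spans, so part of the difference follows from the rule. An isolated anchor had a median of 2 intrachromosomal PETs in shBORIS and 2 in shLUC, against 5 and 5 for other anchors. The medians of interchromosomal PETs were 9 in each table for isolated anchors and 11 in each for the others. No intrachromosomal PET in either table was found for 232 isolated anchors (8.60%) and for 467 others (1.27%). Every isolated anchor had an interchromosomal PET in at least 1 table, and so did every other anchor. At gaps of 500 kb or more the median was 0 intrachromosomal PETs in shBORIS and 1 in shLUC, and 38 of 123 anchors had none in both.

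**Figure D1:**
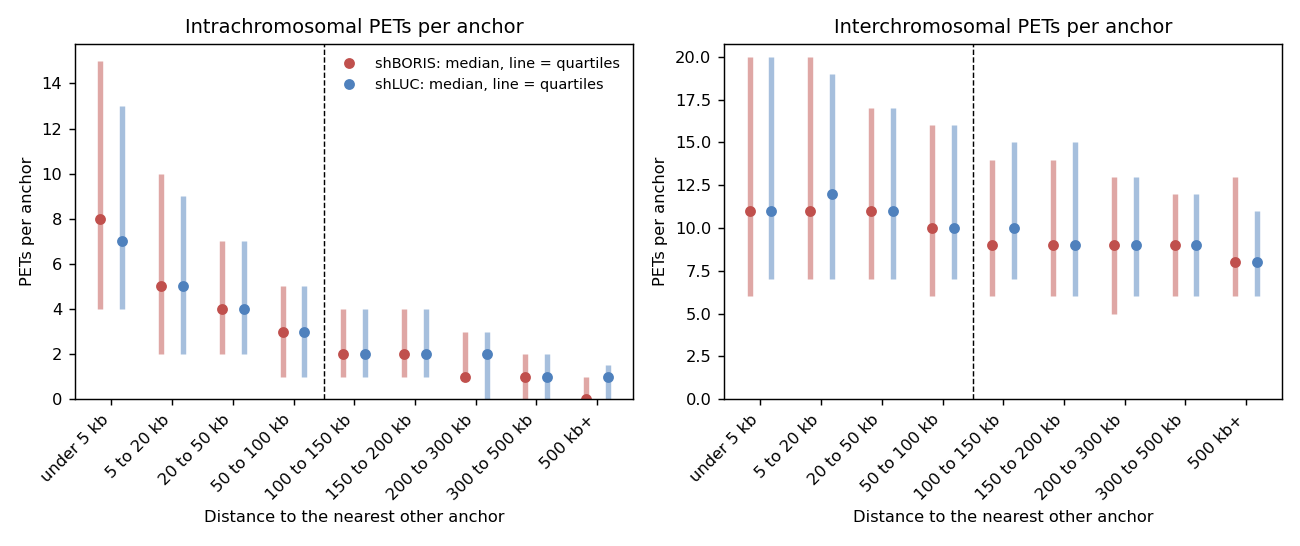
PETs per anchor (y axis) for 9 classes of distance to the nearest other anchor (x axis), intrachromosomal on the left and interchromosomal on the right, with medians as points and quartiles as lines for shBORIS and shLUC. Classes right of the dashed line are the isolated anchors. The intrachromosomal median goes from 8 in shBORIS and 7 in shLUC under 5 kb to 0 and 1 at 500 kb or more, while the interchromosomal median stays between 8 and 12.

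PETs of isolated and other anchors were also compared within classes of width. Among anchors of 1000 to 1200 bp, isolated ones had a mean of 10.1 interchromosomal PETs in shBORIS and 10.7 in shLUC, and others had 9.90 and 10.3. Intrachromosomal means in that width class were 2.50 in shBORIS and 2.53 in shLUC for isolated anchors, against 4.80 and 4.44 for others. From 800 to 1000 bp, isolated anchors had 1.49 and 1.61 intrachromosomal PETs in shBORIS and shLUC, and others 3.24 and 3.03. From 1500 to 2000 bp the interchromosomal means were 21.7 in shBORIS and 21.7 in shLUC for isolated anchors, against 23.7 and 23.6 for others. At 2000 bp or more they were 32.6 and 31.5 for isolated anchors in shBORIS and shLUC, against 39.99 and 38.4, while the intrachromosomal means there were 9.86 and 10.9 against 28.6 and 24.7. Over all spans, intrachromosomal means were lower for isolated anchors in each of the classes given. Those of other anchors include PETs under 100 kb, so this does not show a deficit at matched span. At spans of at least 100 kb in shBORIS, isolated anchors of 1000 to 1200 bp showed no deficit per anchor. There, 758 isolated anchors had 1894 PET ends and 7988 others had 19457. From 1200 to 1500 bp, isolated anchors had fewer ends per anchor, with 2183 over 523 against 44913 over 9663. Interchromosomal means of isolated anchors were slightly higher at 1000 to 1200 bp and lower from 1500 bp.

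The anchors closest to the threshold were of the usual size. Just inside it, chromosome 18 had a pair of neighbours 100.1 kb apart at 77915330-77916229 and 78015281-78016405, joined by 4 PETs in shBORIS and 0 in shLUC. The nearest anchor outside, at 130838072-130839245 on chromosome 8, had a gap of 99.98 kb, with 5 intrachromosomal PETs in shBORIS and 3 in shLUC. The 180 anchors within 5 kb inside the threshold had a median width of 1070 bp and a mean of 3.29 intrachromosomal PETs in shBORIS and 3.52 in shLUC. The 215 anchors within 5 kb outside it had a median width of 1075 bp and means of 3.48 in shBORIS and 3.42 in shLUC. Values on both sides of the threshold were thus close.

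The most remote anchors had almost no contacts on their own chromosome. The largest gap, 5.66 Mb, was that of the first anchor of chromosome 21, at 9831737-9833057, with 0 intrachromosomal PETs in shBORIS and 1 in shLUC and with 21 and 9 interchromosomal ones. At 68417192-68417809 on chromosome 9, the next anchor was 2.78 Mb away on one side and 29.7 Mb on the other, a stretch that holds the centromere. It had 0 and 1 intrachromosomal PETs in shBORIS and shLUC, beside 6 and 7 interchromosomal ones. The anchor at 142537774-142538468 on chromosome 1, whose empty side of 21.1 Mb also holds the centromere, had 0 in each table, beside 4 and 11. On chromosome X, 33452258-33453242 stood 2.40 Mb and 2.46 Mb from its neighbours and had 0 intrachromosomal PETs in each table, beside 7 and 14 interchromosomal ones. Over the 10 most remote anchors the intrachromosomal counts ran from 0 to 1 in shBORIS and from 0 to 3 in shLUC. The highest, 1 in shBORIS and 3 in shLUC, belonged to 135827119-135828201 on chromosome 4.

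A few isolated anchors stood out by their number of contacts. The anchor at 211305776-211309670 on chromosome 1, 3895 bp wide and 124.6 kb from its nearest neighbour, had 95 intrachromosomal PETs in shBORIS and 90 in shLUC, with 128 and 121 interchromosomal ones. At 2551989-2555629 on chromosome 11 there were 64 intrachromosomal PETs in shBORIS and 63 in shLUC, with 103 and 88 interchromosomal ones. At 6663916-6667621 on chromosome 2 there were 63 and 64, with 105 and 84. These 3 anchors held 2.96% of the intrachromosomal PET ends of all isolated anchors, and the 10 with the most PETs of both kinds included no other anchor with more than 34 in a table. A scaled ratio of shBORIS over shLUC divides each count by its table's total of the same kind first. For intrachromosomal PETs it was 0.946 (95% interval 0.702 to 1.28) for the anchor on chromosome 1, 0.911 (0.633 to 1.31) for that on chromosome 11 and 0.882 (0.613 to 1.27) for that on chromosome 2, and each interval included 1.

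The remaining 7 of the 10 varied in how far they reached. At 43538601-43540501 on chromosome 1, 34 intrachromosomal PETs were counted in each table, with 9 in shBORIS and 10 in shLUC to the best partner at 43243120-43244420, 296 kb away. At 112835200-112838172 on chromosome 10 there were 26 in shBORIS and 22 in shLUC, and the best partner at 113899295-113900810 lay 1063 kb away with 6 and 3 PETs. That anchor also had 62 interchromosomal PETs in shBORIS and 37 in shLUC, a scaled ratio of 1.69 (1.105 to 2.61) that is not adjusted for the number of anchors compared. At 222434729-222439426 on chromosome 2, the second widest isolated anchor with 4698 bp, 71 and 62 interchromosomal PETs in shBORIS and shLUC stood beside only 12 and 17 intrachromosomal ones. The anchor at 92537104-92541003 on chromosome 12, 3900 bp wide, had 59 and 53 interchromosomal PETs against 7 and 16 intrachromosomal ones in shBORIS and shLUC. Great width and many tags therefore did not always come with many contacts on the same chromosome.

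The widest isolated anchors showed the same spread. The widest of all, 5234 bp at 89743303-89748536 on chromosome 12, had 11 intrachromosomal PETs in shBORIS and 8 in shLUC, and 59 and 43 interchromosomal ones. The third, 4205 bp at 82460246-82464450 on chromosome 6, had 4 intrachromosomal PETs in each table, and 37 and 56 interchromosomal ones in shBORIS and shLUC. Of the 10 widest, 6 were also among the 10 with the most PETs.

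**Figure D2:**
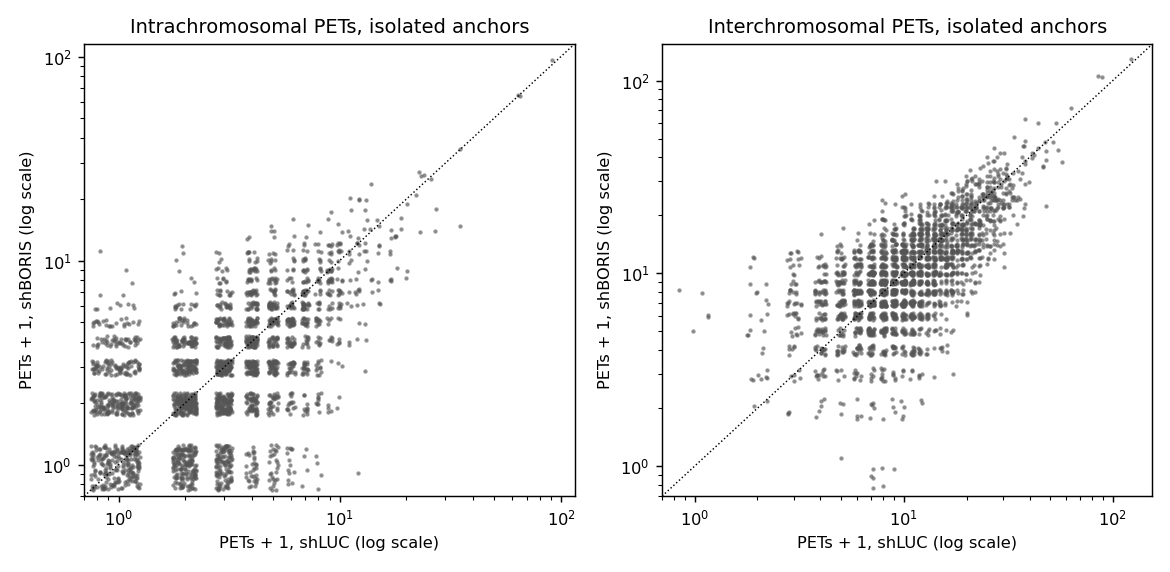
PETs plus 1 of each of the 2699 isolated anchors in shBORIS (y axis) against shLUC (x axis), both on log scales, intrachromosomal on the left and interchromosomal on the right, with points jittered and equal counts on the dotted line. Most anchors lie at a few intrachromosomal PETs, and the anchor with 95 in shBORIS and 90 in shLUC is the topmost point on the left.

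Interactions of isolated anchors were then examined one by one. A call here means a pair on 1 chromosome with 3 or more PETs and a Bayes probability, as given by the authors, of 0.9 or more. In shBORIS 332 called interactions had an isolated end and in shLUC 342. Of these, 125 were called in both tables, 207 in shBORIS alone and 217 in shLUC alone. The shared share was 37.7% of the shBORIS calls (95% exact interval 32.4 to 43.1) and 36.5% of the shLUC calls (31.4 to 41.9). For calls between other anchors spanning at least 100 kb it was 46.6% (45.1 to 48.1) and 51.1% (49.5 to 52.6). Calls of isolated anchors had a median of 4 PETs in shBORIS and 3 in shLUC, close to the minimum of 3. The median was 4 in each table for calls between other anchors spanning at least 100 kb. Of the calls of isolated anchors in 1 table alone, 56.5% of those in shBORIS and 64.1% of those in shLUC had exactly 3 PETs. At least 1 PET in the other table was found for 126 of the 207 calls of isolated anchors in shBORIS alone and 132 of the 217 in shLUC alone. For calls between other anchors spanning at least 100 kb, this held for 1521 of 2292 in shBORIS alone and 1334 of 1919 in shLUC alone.

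A call was the exception for an isolated anchor. At least 1 call was held by 314 of 2699 in shBORIS (11.6%, 10.4 to 12.9) and 317 in shLUC (11.7%, 10.6 to 13.02), and by 147 in both. Among other anchors, 16.8% in shBORIS (16.4 to 17.1) and 16.3% in shLUC (15.9 to 16.7) had a call spanning at least 100 kb. These shares are per anchor and not per possible partner. At 100 to 500 kb the median number of possible partners was 6 for isolated anchors and 17 for others. Isolated anchors with a call in either table numbered 484. They had a median width of 1246 bp and a median gap of 144 kb, against 994 bp and 161 kb for the 2215 without one. One call was held by 273 anchors in each table, and the most was 6 for an anchor in shBORIS and 5 in shLUC.

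Among the 10 strongest calls shared by both tables, 4 joined adjacent anchors and 6 spanned at least 1 other anchor. The pair with the most PETs joined 211305776-211309670 on chromosome 1 to 210756926-210759635, a span of 549 kb with 9 other anchors in between, with 39 PETs in shBORIS and 27 in shLUC. Its scaled ratio was 1.29 (0.773 to 2.20). The same anchor also contacted 210620912-210622789, 686 kb away, where shBORIS had 8 PETs and shLUC 18 (scaled ratio 0.398, 0.150 to 0.963). On chromosome 11, 2551989-2555629 contacted its neighbour at 2448887-2450446 across 104 kb with 23 PETs in shBORIS and 19 in shLUC. On its other side it contacted 2908865-2910527 with 16 and 13 PETs and 2912698-2914352 with 12 and 14, across 356 and 360 kb. On chromosome 2, 6663916-6667621 contacted 6910944-6914390 across 247 kb with 29 PETs in shBORIS against 12 in shLUC (scaled ratio 2.17, 1.07 to 4.66). Its contact in the other direction, with 6510584-6511869 across 155 kb, had 6 PETs in shBORIS against 14 in shLUC (scaled ratio 0.384, 0.121 to 1.06). These intervals are not adjusted for the number of pairs compared.

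Chromosomes 1 and X gave the remaining 3 of the 10 strongest. On chromosome 1, 44228629-44230307 contacted 44399103-44401471 across 171 kb with 15 PETs in shBORIS and 12 in shLUC. On chromosome X, the isolated neighbours at 9310251-9311244 and 9430448-9431793 contacted each other across 120 kb with 9 and 12 PETs in shBORIS and shLUC. A further pair on chromosome X, from 9963407-9964595 to 10086946-10088435, had 11 and 9. In the 10 pairs, the partner was isolated only in the first pair on chromosome X.

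Partners of isolated anchors were mostly not isolated themselves. Isolated anchors are 6.84% of all anchors. Among available pairs at 100 to 500 kb, 1494 had 2 isolated ends and 15972 had 1. For 2467 isolated anchors with an intrachromosomal PET, the partner with the most PETs over both tables was the next anchor on one side in 46.5% and an isolated anchor in 26.3%. The median distance to it was 303 kb. Where the best partner had at least 5 PETs, which held for 289 anchors, the median distance was 228 kb with quartiles of 153 and 377 kb. In that set the partner was the next anchor in 54.0% and its span was under 2 Mb in all 289. Over all PETs with an isolated end the median span was 437 kb in shBORIS and 454 kb in shLUC, against 291 and 298 kb for PETs of at least 100 kb between other anchors.

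The excess of contacts over random ligation was large within 2 Mb, small at 2 to 10 Mb and near 0 beyond. Random ligation was predicted for every pair from the interchromosomal PETs of its 2 anchors. At spans of 100 to 500 kb, 3618 PETs with an isolated end were counted in shBORIS and 3687 in shLUC, where 5.10 and 5.31 were predicted. At 500 kb to 2 Mb, 1454 and 1483 were counted against 23.3 and 24.3 predicted, in shBORIS and shLUC. Above 2 Mb, 1666 PETs in shBORIS and 1787 in shLUC compared with predictions of 1499.7 and 1572, which equal 90.0% and 88.0% of the counts. Within that class, at 2 to 10 Mb, 242 PETs were counted in each table against 134.2 predicted in shBORIS and 140.9 in shLUC, or 1.803 times (1.58 to 2.04) and 1.72 times (1.51 to 1.95) the prediction. Above 10 Mb the count was 1.04 times the prediction in shBORIS (0.989 to 1.098) and 1.08 times in shLUC (1.03 to 1.13). Spans above 2 Mb held 24.7% of the intrachromosomal PETs of isolated anchors in shBORIS and 25.7% in shLUC, against 22.4% and 24.2% of PETs of at least 100 kb between other anchors.

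At a given span, pairs with an isolated end exceeded random ligation by more than other pairs did. The number of anchors between the ends was not held here, and with it held the values went both ways, as given below. At 100 to 500 kb the observed number was 710 times the prediction in shBORIS (687 to 734) and 694 times in shLUC (672 to 717), against 245 (243 to 247) and 230 (228 to 232) for other pairs. The ratio of isolated over other was 2.90 in shBORIS (2.80 to 2.997, normal approximation) and 3.02 in shLUC (2.92 to 3.12). At 500 kb to 2 Mb it was 4.21 (3.98 to 4.45) and 4.31 (4.08 to 4.56). Above 10 Mb it was 1.02 (0.967 to 1.08) and 1.05 (0.9997 to 1.11), and both intervals included 1. Isolated anchors also had fewer partners to choose from, a median of 6 anchors at 100 to 500 kb against 17 for other anchors.

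**Figure D3:**
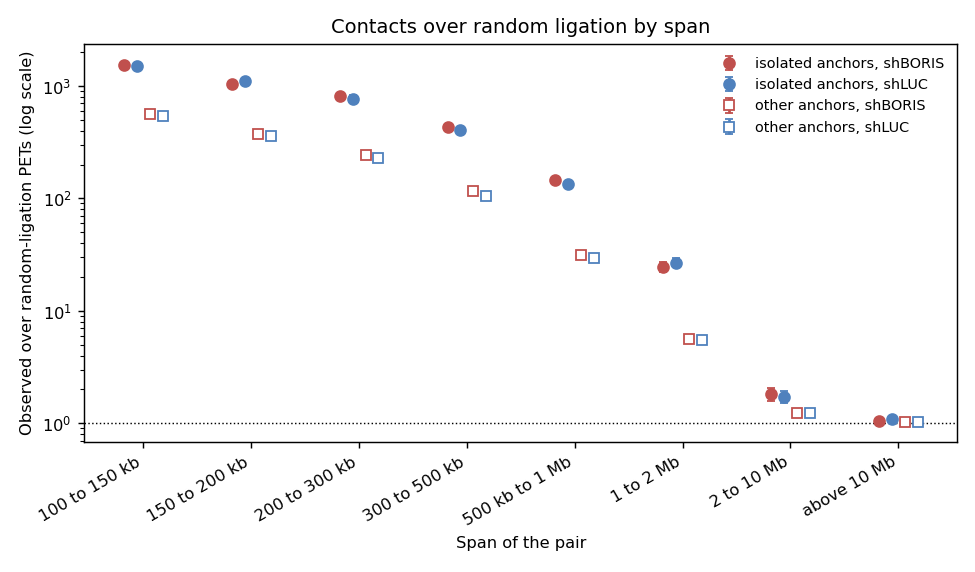
Observed PETs over those predicted from random ligation (y axis, log scale) for 8 span classes (x axis), for pairs with an isolated end (filled circles) and pairs of other anchors (open squares) in shBORIS and shLUC. Bars are 95% Poisson intervals and are mostly smaller than the symbols. Isolated pairs lie above the others in every class up to 2 to 10 Mb, and all 4 series approach 1 above 10 Mb. The number of anchors between the ends is not held.

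Pairs were also compared with the number of anchors lying between the ends held. The measure here was the share of available pairs with at least 1 PET, which is not scaled to random ligation. Of adjacent pairs 100 to 150 kb apart, with no anchor in between, 28.1% with an isolated end had a PET in shBORIS (25.6 to 30.7) and 28.8% in shLUC (26.3 to 31.4). For adjacent pairs without an isolated end the shares were 34.2% (31.9 to 36.6) and 34.2% (31.8 to 36.6). With 1 to 4 anchors between the ends at 200 to 300 kb, 13.5% of isolated pairs were seen in shBORIS (12.3 to 14.8) and 12.2% in shLUC (10.98 to 13.4), against 14.1% (13.6 to 14.6) and 14.2% (13.7 to 14.8) of other pairs. With 5 to 9 anchors between at 300 to 500 kb, the shares were 5.06% (4.26 to 5.96) and 4.61% (3.85 to 5.48) for isolated pairs in shBORIS and shLUC, against 5.94% (5.71 to 6.18) and 5.23% (5.01 to 5.46). The direction was not the same in every class. With 10 or more anchors between at 500 kb to 1 Mb, 1.27% of isolated pairs were seen in shBORIS (1.07 to 1.51) and 1.08% in shLUC (0.887 to 1.299), against 0.918% (0.887 to 0.949) and 0.790% (0.762 to 0.819) of other pairs. Of 17 classes of span and anchors between with at least 20 pairs of each kind, the share was lower for isolated pairs in 14 in shBORIS and 13 in shLUC. The intervals did not overlap in 3 of these in shBORIS and 5 in shLUC, among them adjacent pairs at 100 to 150 kb in both tables. The 500 kb to 1 Mb class with 10 or more between was the only one in which isolated pairs were higher with intervals that did not overlap, in both tables. Pairs that share an anchor are not independent, which these intervals leave out. Observed over random-ligation PETs went both ways. For adjacent pairs at 100 to 150 kb this was 1964 isolated against 1912 other in shBORIS, and 1856 against 1901 in shLUC. Adjacent pairs at 150 to 200 kb gave 1512 against 2084 and 1555 against 1841. With 5 to 9 anchors between at 200 to 300 kb, the values were 433 against 303 and 398 against 270. At 300 to 500 kb with 1 to 4 between, they were 571 against 577 and 544 against 532. At 500 kb to 1 Mb with 10 or more between, they were 43.8 against 21.4 and 41.5 against 18.9.

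**Figure D4:**
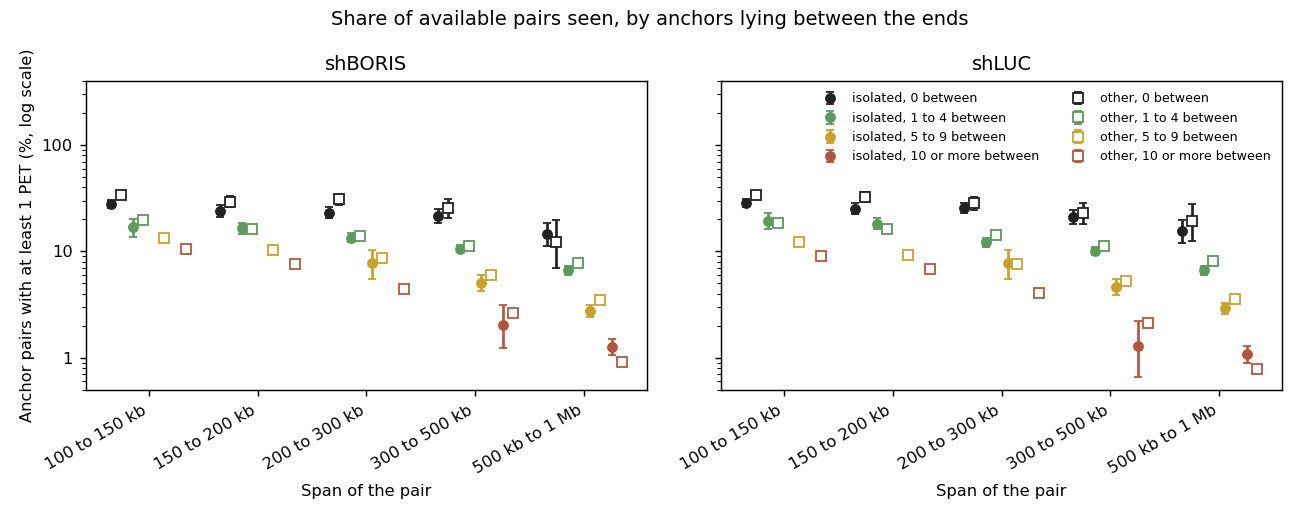
Share of available anchor pairs with at least 1 PET (y axis, percent) on a log scale for 5 span classes (x axis) in shBORIS (left) and shLUC (right), coloured by the number of anchors between the ends, with filled circles for pairs with an isolated end and open squares for other pairs. Bars are exact 95% intervals, and classes of fewer than 100 pairs are left out. At 100 to 150 kb with no anchor between, 28.1% of isolated and 34.2% of other pairs were seen in shBORIS, and at 500 kb to 1 Mb with 10 or more between, 1.27% and 0.918%.

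Relative to each table's total, isolated anchors had fewer intrachromosomal PETs in shBORIS than in shLUC. The scaled ratio was 0.868 (0.839 to 0.898) for PETs with an isolated end and 1.01 (0.999 to 1.01) for all other intrachromosomal PETs. For interchromosomal PETs it was 0.966 (0.951 to 0.982) with an isolated end and 1.00 (0.998 to 1.01) without. Spans differ between these sets, since PETs under 100 kb, which isolated anchors cannot have, made up 51.6% of the other intrachromosomal PETs in shBORIS and 49.3% in shLUC. Among other anchors alone, PETs of at least 100 kb had a ratio of 0.963 (0.953 to 0.973).

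At matched span the ratio was still lower for isolated anchors. At 100 to 500 kb it was 0.880 (0.840 to 0.921) with an isolated end and 0.989 (0.976 to 1.00) without, a ratio of ratios of 0.889 (0.848 to 0.933, normal approximation). At 500 kb to 2 Mb the 2 values were 0.879 (0.817 to 0.945) and 0.967 (0.939 to 0.997), a ratio of ratios of 0.909 (0.840 to 0.983). Above 2 Mb, where predicted random PETs made up most of the counts, they were 0.836 (0.781 to 0.894) and 0.891 (0.873 to 0.911), and the ratio of ratios of 0.937 (0.874 to 1.01) included 1. Subtracting the predicted random PETs left 0.880 for isolated and 0.989 for other anchors at 100 to 500 kb. On pairs called in either table the ratio was 0.877 (0.819 to 0.940) for isolated anchors and 0.989 (0.971 to 1.01) for others spanning at least 100 kb. These pairs were selected by the same counts, so this ratio is not a separate check. Calls in shBORIS alone and shLUC alone numbered 207 and 217 for isolated anchors, and 2292 and 1919 for the others.

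The same ratio of ratios was taken on each chromosome. From 100 kb to 2 Mb, the ratio of ratios was below 1 on 19 of 23 chromosomes, with an interval below 1 on 4 and above 1 on 0. The lowest value was 0.669 (0.536 to 0.834) on chromosome 9, followed by 0.718 (0.545 to 0.947) on chromosome 14. Chromosomes 13, 19, 20 and 22 had values above 1, with 1.71 (0.951 to 3.08) on chromosome 22, which has 11 isolated anchors. Pooled within chromosomes and 4 finer span classes by the Mantel-Haenszel method, the ratio of ratios at 100 to 500 kb was 0.902 (0.859 to 0.947). For 500 kb to 2 Mb, with 2 finer classes, it was 0.935 (0.863 to 1.01), which includes 1. Chromosomes and anchors are not replicates of a condition, and the spread between the libraries of a group was not tested.

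Ratios were also taken by distance to the nearest anchor. Counting PET ends per anchor, the intrachromosomal ratio was 1.03 (1.02 to 1.03) at gaps under 5 kb, 0.956 (0.943 to 0.968) at 20 to 50 kb, 0.906 (0.886 to 0.925) at 50 to 100 kb and 0.873 (0.837 to 0.912) at 100 to 150 kb. It was 0.903 (0.843 to 0.967) at 150 to 200 kb and 0.834 (0.765 to 0.908) at 200 to 300 kb, so the order is not strict. At 300 to 500 kb it was 0.782 (0.675 to 0.905), and at 500 kb or more 0.710 (0.540 to 0.932), from 99 ends in shBORIS and 125 in shLUC. For interchromosomal ends the ratios were 1.01 (1.01 to 1.02) under 5 kb, 0.966 (0.944 to 0.988) at 100 to 150 kb, 1.01 (0.951 to 1.07) at 300 to 500 kb and 1.07 (0.981 to 1.16) at 500 kb or more. For the 369 anchors with a gap of at least 300 kb, the intrachromosomal ratio divided by the interchromosomal one was 0.746 (0.652 to 0.853, normal approximation), and for all isolated anchors 0.897 (0.866 to 0.930). These gap classes differ in the spans they allow, so the series is not at matched span.

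**Figure D5:**
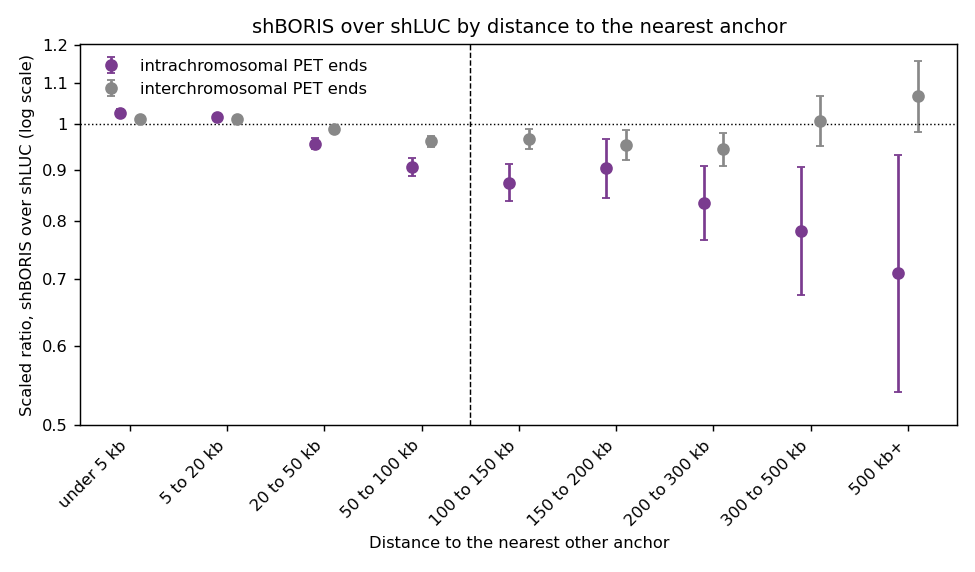
Scaled ratio of shBORIS over shLUC (y axis, log scale) for PET ends of anchors in 9 classes of distance to the nearest other anchor (x axis), intrachromosomal in purple and interchromosomal in grey, with exact 95% intervals. Classes right of the dashed line are the isolated anchors. The intrachromosomal ratio is 1.03 under 5 kb and 0.710 at 500 kb or more, where the interchromosomal ratio is 1.07.

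Since isolated anchors were narrower, ratios were also taken by width. Counting ends of PETs spanning at least 100 kb, anchors of 1500 bp or more had ratios of 0.880 (0.823 to 0.941) if isolated and 0.986 (0.976 to 0.996) if not. From 1200 to 1500 bp the values were 0.870 (0.820 to 0.923) and 0.943 (0.931 to 0.956). From 1000 to 1200 bp they were 0.884 (0.829 to 0.942) and 0.916 (0.898 to 0.935), with overlapping intervals, and from 800 to 1000 bp 0.832 (0.764 to 0.906) and 0.915 (0.889 to 0.942). Below 800 bp they were 0.814 (0.715 to 0.926) and 0.937 (0.8999 to 0.975). The ratio was thus lower for isolated anchors in each of the 5 width classes. Intervals of isolated and other anchors overlapped in the 3 classes below 1200 bp and did not in the 2 above.

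No single isolated anchor passed the test between the tables. For intrachromosomal PETs, 422 of the 2699 reached the minimum of 10 PETs over both tables, and by Fisher's exact test 0 of them passed, with Benjamini-Hochberg adjustment over all 19615 anchors tested (lowest adjusted p = 0.224). Over all anchors 0.0204% passed. With an unadjusted p under 0.05 there were 31 of the 422, or 7.35%, against a background of 6.43%. Of these, 9 were higher in shBORIS (2.13%, background 3.25%) and 22 lower (5.21%, background 3.18%). The median ratio was 0.896 for the 422, the value that equal counts in both tables give, and 1.01 over all tested anchors. Dividing the chi-square statistic by the estimated dispersion of 1.25 left 0 of the 422 past the threshold and 19 at an unadjusted p below 0.05. With the same dispersion, 942 of all 19615 anchors tested were at an unadjusted p below 0.05.

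The 3 anchors with the smallest p in each direction were examined. At 135996590-135998035 on chromosome 6, 0 intrachromosomal PETs were counted in shBORIS and 11 in shLUC, which puts the exact upper limit of the ratio at 0.357. Its adjusted p was 0.224 by Fisher's exact test. Between chromosomes it had 17 PETs in shBORIS and 22 in shLUC. At 156391165-156394267 on chromosome 3 there were 14 and 34 in shBORIS and shLUC, for which the scaled ratio was 0.369 (0.183 to 0.706) and the adjusted p 0.368 by Fisher's exact test. It had 43 and 54 PETs to other chromosomes. Within the chromosome, the contact with 156798781-156800509 took 3 PETs in shBORIS and 11 in shLUC. At 74311823-74312728 on chromosome 4 there were 2 and 12 (Fisher's exact test, adjusted p = 0.490). In the other direction, 199082055-199083244 on chromosome 1 had 10 in shBORIS and 0 in shLUC, an exact lower limit of 2.01 (Fisher's exact test, adjusted p = 0.459). At 11389903-11390918 on chromosome 6 there were 11 and 1, and at 29369684-29370780 on chromosome 19 there were 10 and 1 (Fisher's exact test, adjusted p = 0.536 and 0.591).

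For interchromosomal PETs, 2400 isolated anchors reached the minimum of which 0 passed. Over all 35597 anchors tested, 0.014% passed. By Fisher's exact test the lowest adjusted p of an isolated anchor was 0.628. An unadjusted p under 0.05 was found for 121 of the 2400, or 5.04%, against a background of 5.56%, with 52 higher in shBORIS (2.17%, background 3.09%) and 69 lower (2.88%, background 2.47%). The median ratio of the 2400 was 1.01, as over all tested anchors. The estimated dispersion of 1.17 left 0 past the threshold and 119 of the 2400 at an unadjusted p below 0.05, against 1769 of all 35597. Anchors with small p-values included 146653810-146655418 on chromosome 4, with 23 PETs in shBORIS and 7 in shLUC, and 95256631-95258716 on chromosome 11, with 21 and 47 (Fisher's exact test, adjusted p = 0.628 for each). The anchor on chromosome 11 also had 8 intrachromosomal PETs in shBORIS and 19 in shLUC.

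Interchromosomal contacts of isolated anchors rarely recurred. Of 28230 such pairs in shBORIS and 29438 in shLUC, 138 (0.489%) and 113 (0.384%) had 2 or more PETs, against 0.506% and 0.419% of pairs between other anchors. The most PETs over both tables joined 166554775-166555828 on chromosome 2 to 134035991-134037591 on chromosome 10, with 4 in shBORIS and 5 in shLUC. Next came a pair of isolated anchors near the starts of chromosomes 10 and 18, at 119610-120691 and 11048-12418, with 5 and 2 PETs. No other such pair had more than 3 PETs over both tables. These pairs were named after their values were seen.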

How the data were processed

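SMC1 ChIA-PET was measured in 2 libraries per group. Per the submitters' processing notes, which give neither role nor order, cutadapt 1.8, Bowtie and the hg19 build were used. Which caller defined anchors and pairs is not given in the sources used here. As deposited by the authors, values are PET counts, unnormalized whole numbers per anchor pair, pooled over the 2 libraries of a group. The deposited hypergeometric p-value was not used. The deposited Bayes probability, a fraction in steps of 0.001, served for calls only. The shBORIS table carries no header, so its 9 columns were taken to be in the order that the shLUC header names. Starts were raised by 1 to count from 1.

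Anchors of both tables were joined, 0 of them overlapping, and 41 outside chromosomes 1 to 22 and X were left out as members. Members and tests were chosen with earlier results of these data known. Scaled ratios divide by the table's intrachromosomal or interchromosomal total, with exact 95% Clopper-Pearson intervals. Random ligation between 2 anchors was predicted as the product of weights fitted to interchromosomal PETs, on the assumption that all of these are random. Fisher's exact test with Benjamini-Hochberg adjustment (threshold 0.05) was run over all anchors with at least 10 PETs. It was also run on simulated counts drawn without extra dispersion, in which the changed anchors were all raised. That run does not test it on counts dispersed like these or on lowered anchors. Regions were named by rule: most PETs, largest gap, widest, strongest shared calls, smallest p. Python 3.11.15, numpy 2.4.6, pandas 2.3.3, scipy 1.17.1 and matplotlib 3.10.9 were used. No annotation or genome of this build was used, so no gene or sequence is given. Alternatives varied the gap, scaling, spans, filters, dispersion and call minimum.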

Additional observations from a re-analysis of the deposited data

How the results depend on the processing

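Of 51 alternatives over 15 results, 33 stayed within the interval or within 1.5 times the main count, 18 moved and 0 reversed. The number of isolated anchors was 6687 at a gap of 50 kb and 866 at 200 kb. The intrachromosomal ratio was 0.808 at a gap of 200 kb, 0.910 scaled to spans of at least 100 kb and 0.936 scaled to all PETs, and its interval stayed below 1 in each of its alternatives. The interchromosomal ratio was 0.928 scaled to all PETs, and at a gap of 200 kb its interval included 1 (0.945 to 1.00). The matched ratio of ratios at 100 to 500 kb was 0.789 at a gap of 200 kb. Within chromosomes and finer span classes, an alternative chosen after seeing the data, the value at 500 kb to 2 Mb had an interval that included 1 (0.935, 0.863 to 1.01). Over all anchors, 1 passed the intrachromosomal test with the estimated dispersion. In the interchromosomal test, 8 passed with at least 20 PETs and 3 with the dispersion. No isolated anchor passed any of these tests (Fisher's exact or dispersed chi-square, smallest adjusted p from 0.224 to 0.960, with 9 to 139 anchors at an unadjusted p under 0.05). Such an unadjusted p was found for 735 to 2156 of all anchors across the same settings. With at least 5 PETs, calls numbered 79 in shBORIS and 80 in shLUC, of which 33 were shared, 46 in shBORIS alone and 47 in shLUC alone, by construction of the higher minimum. Taking any PET in the opposite table as sharing, 383 were shared, 81 in shBORIS alone and 85 in shLUC alone. Causes of the other shifts were not tested. No paired analysis was possible because the deposited columns merge both libraries of a group. For the same reason, leaving out a replicate could not be tried. Most isolated anchors, with a median of 2 intrachromosomal PETs per table, lie below what the anchor test can read.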

Other observations

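Isolated anchors listed in 1 table alone numbered 9 of 2699, 3 in shBORIS and 6 in shLUC, and none had more than 8 PETs. Over all anchors this held for 40 of 39466, 16 in shBORIS and 24 in shLUC, with up to 601 PETs. Of the 46 first and last anchors of the 23 chromosomes, 15 were isolated.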
